A study of Mus musculus with 18 samples.

Results

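The 77 genes described here encode subunits of the 5 oxidative phosphorylation complexes, measured on exon arrays of mouse quadriceps. A gene was included if a row of the array table carried its symbol alone and the symbol belonged to an Nduf, Sdh, Uqcr, Cyc1, Cox4 to Cox8 or Atp5 subunit. Genes with several rows were represented by the brightest of them, judged by the mean of all 18 arrays without regard to group. The 77 genes, out of 20259 genes with such a row, comprise 35 genes of complex I, 4 of complex II, 9 of complex III, 15 of complex IV and 14 of complex V. A further 10 matching symbols were found only on rows shared with another symbol and are not included, among them Atp5o, Cox6c, Cox7a2l, Ndufa10 and Ndufs5. The reference annotation lists Ndufa11b as a transcribed pseudogene and Ndufs6b as a pseudogene.

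Quadriceps RNA came from male mice aged 10 weeks in 6 groups of 3 biological replicates, all on a C57BL/6 background. The wt mice carried neither mutation nor transgene, and Dysf-/- mice lacked dysferlin, a membrane repair protein of muscle. F66 mice carried a transgene for the myostatin inhibitor follistatin (Fst), driven in skeletal muscle by a myosin light chain promoter and located on the Y chromosome, and F66;Dysf-/- mice combined the transgene with loss of dysferlin. Both ACVR2B/Fc-injected groups, one of wt and one of Dysf-/- mice, received a soluble activin type IIB receptor, its extracellular part joined to an antibody Fc region, in 4 weekly intraperitoneal injections of 10 mg/kg (200 µg per injection) that began at 6 weeks of age. The labels of the remaining 4 groups name no injection, and whether these mice received vehicle is not stated for the arrays. F66 is a single transgenic line, so the site of integration is shared by every array of F66 and of F66;Dysf-/-.

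Oxidative phosphorylation is carried out in the mitochondrial inner membrane. Complexes I and II pass electrons from NADH and succinate to ubiquinone, complex III passes them on to cytochrome c, and complex IV delivers them to oxygen. Complexes I, III and IV pump protons, and complex V, the ATP synthase, uses the proton gradient to make ATP. Oxidative muscle fibres are rich in these complexes, while fast glycolytic fibres, which predominate in quadriceps, hold fewer mitochondria. A few subunits of complex IV exist as a form found in most tissues and a form of heart and skeletal muscle.

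All values are array values on the log2 scale, and a difference of group means on this scale is called a log2 difference. Dysf, the deleted gene, lay between 6.76 and 7.10 in the 9 arrays labelled as lacking dysferlin and between 8.48 and 8.91 in the other 9. The 12 skeletal muscle fibre markers averaged 11.69 to 11.96 per array, far above the median of all rows (5.37), so the arrays carry the markers of the labelled tissue. The lowest correlation between any pair of arrays was r = 0.954 over all rows. Most of the subunits were bright: the median member stood at the 93.5th percentile of the genes tested, and only Cox7b2 (3.72), Cox8c (5.35) and Ndufs6b (5.09) had a mean below that median. For 11 members the row used lies, by its place in the array's numbering, among rows of another chromosome than that of the gene (14.3% of the members, against 4.11% of genes in general), so it may measure a near-identical copy as well as the gene. These are Atp5c1, Atp5md, Cox5a, Cox5b, Cox7c, Ndufa7, Ndufa12, Ndufb4, Ndufs3, Uqcr11 and Uqcrh, and 10 of them have a dimmer row on their own chromosome.

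Promoters of subunits are known to carry sites for the nuclear respiratory factors NRF1 and GABPA (also called NRF2), for the oestrogen-related receptor ERRA and for YY1. RefSeq promoter windows (build GRCm38.p6, from 250 bases before to 50 bases after a start) were found for 60 of the 77 members. Both strands were searched for the letters GCGCANGCG (NRF1), CCGGAAG (GABPA), TCAAGGTCA (ERRA) and AAGATGGCG (YY1). The NRF1 letters occurred in 15 of the 60 windows (25.0%) and in 6.5% of all 27025 windows. The GABPA letters also occurred in 15 (25.0%, against 9.1%), the YY1 letters in 6 (10.0%, against 1.5%) and the ERRA letters in 2 (3.3%, against 0.4%). A match describes the letters and shows no binding. The 250 bases before the start are shown for 4 members because their windows carry NRF1 letters and their values went different ways in F66;Dysf-/- mice: Sdha, Sdhd and Ndufs6 were lower and Cox6a1 was higher than in Dysf-/-. All 4 lie on the minus strand and are written 5′ to 3′, with the NRF1 and GABPA letters, on either strand, in capitals. Sdha (chr13:74350241-74350490) has NRF1 letters beginning 98, 55 and 10 bases before the start, Sdhd (chr9:50603850-50604099) has NRF1 letters at 79 and GABPA letters at 46, Ndufs6 (chr13:73328483-73328732) has NRF1 letters at 15, and Cox6a1 (chr5:115348959-115349208) has NRF1 letters at 162 and 117 and GABPA letters at 16. The match of Cox6a1 at 162 overlaps a match on the opposite strand that begins at 161.
Sdha: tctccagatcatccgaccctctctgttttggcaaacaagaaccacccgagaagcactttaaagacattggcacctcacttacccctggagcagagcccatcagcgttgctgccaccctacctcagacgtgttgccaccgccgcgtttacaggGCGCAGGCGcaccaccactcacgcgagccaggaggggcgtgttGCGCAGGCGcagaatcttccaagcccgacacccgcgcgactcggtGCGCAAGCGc
Sdhd: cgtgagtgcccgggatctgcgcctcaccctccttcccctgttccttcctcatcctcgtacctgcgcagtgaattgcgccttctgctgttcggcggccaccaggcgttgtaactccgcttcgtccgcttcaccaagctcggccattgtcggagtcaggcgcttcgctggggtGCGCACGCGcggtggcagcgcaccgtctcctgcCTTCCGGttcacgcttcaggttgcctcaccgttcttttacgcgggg
Ndufs6: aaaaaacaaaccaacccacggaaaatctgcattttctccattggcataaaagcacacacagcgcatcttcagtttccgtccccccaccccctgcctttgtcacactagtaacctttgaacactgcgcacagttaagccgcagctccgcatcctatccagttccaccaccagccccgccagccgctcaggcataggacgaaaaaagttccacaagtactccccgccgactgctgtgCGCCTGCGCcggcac
Cox6a1: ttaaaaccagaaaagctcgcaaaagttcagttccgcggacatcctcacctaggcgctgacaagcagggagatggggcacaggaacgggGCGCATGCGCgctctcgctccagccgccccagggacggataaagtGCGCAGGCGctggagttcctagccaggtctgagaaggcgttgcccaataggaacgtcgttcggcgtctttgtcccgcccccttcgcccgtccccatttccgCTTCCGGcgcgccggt

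Among the 27 windows of members that were lower in F66;Dysf-/- than in Dysf-/-, the NRF1 letters occurred in 8, the GABPA letters in 6, the YY1 letters in 5 and the ERRA letters in 1. Among the windows of the other 33 members they occurred in 7, 9, 1 and 1. The YY1 letters of Ndufs6 and the ERRA letters of Sdhd lie after the start, outside the stretches shown above.

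The muscle of F66;Dysf-/- mice had lower levels of many subunits, with the largest shares in complexes I and II. Of the 77 members, 34 were lower and 2 were higher in F66;Dysf-/- than in Dysf-/- (limma, Benjamini-Hochberg adjusted p under 0.05 over all genes), against 18.4% of all genes lower and 15.2% higher. The members lower thus made up 44.2%. Of the 77, 70 had a log2 difference below 0, as did 13014 of all 20259 genes. The median log2 difference was -0.19 for the members and -0.09 for all genes. Against F66, 32 members (41.6%) were lower and 1 was higher, where 20.3% of all genes were lower and 14.5% higher, with a median of -0.15 for the members and -0.08 for all genes. Both comparisons share the F66;Dysf-/- arrays, so an overlap of their calls arises in part from the design. Of the members, 25 were lower in both, and the same count over all genes was not made. By complex, the share lower against Dysf-/- was 54.3% in complex I, 75.0% of the 4 genes of complex II, 33.3% in complex III, 6 of 15 genes in complex IV and 21.4% in complex V. Against F66 it was 57.1% in complex I, 2 of 4 genes in complex II, 44.4% in complex III, 3 of 15 genes in complex IV and 21.4% in complex V. Complex V in both comparisons, and complex IV against F66, thus lay near the share of all genes. In bulk RNA, fewer muscle fibres and less subunit RNA per fibre cannot be told apart.

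**Figure D1:**
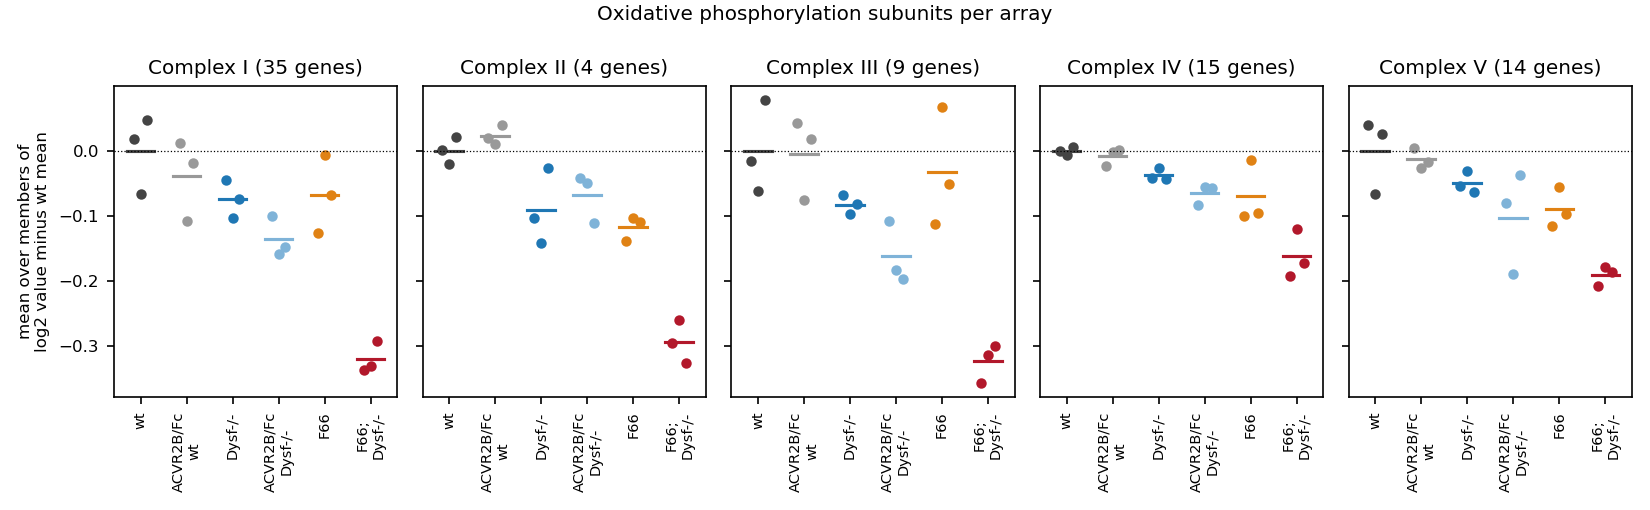
Mean over the members of each complex of the log2 value minus the wt mean of the same gene, for each array (points, 3 per group) with the group mean (lines). The F66;Dysf-/- arrays lie lowest in every panel except complex V, where 1 ACVR2B/Fc-injected Dysf-/- array (-0.19) lies among them. No test was made on these means.

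Averaged over the 77 members, the F66;Dysf-/- arrays lay 0.25 to 0.29 below the wt mean. The 3 arrays of this group lay below each of the other 15, of which the lowest, an ACVR2B/Fc-injected Dysf-/- array, stood at -0.14. The mean of F66;Dysf-/- was -0.32 for complex I, -0.29 for complex II, -0.32 for complex III, -0.16 for complex IV and -0.19 for complex V. F66 alone averaged -0.07 and Dysf-/- alone -0.06 over all members. ACVR2B/Fc-injected Dysf-/- arrays averaged -0.12 and ACVR2B/Fc-injected wt arrays -0.02. Across the 6 groups, a moderated F test called 45 of the 77 members, against 49.2% of all genes: 24 of 35 in complex I, 3 of 4 in complex II, 4 of 9 in complex III, 11 of 15 in complex IV and 3 of 14 in complex V.

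The sizes were small. On the rows used, the largest log2 difference of any member in the 6 comparisons of groups was 0.64 in size. No member thus reached the more than 2-fold difference used in the array methods of the study. The count also depended on how the arrays were scaled. After each array was centred on its median, 15 members were lower and 3 higher in F66;Dysf-/- than in Dysf-/-, and the genes called went from 3078 higher and 3730 lower to 3957 higher and 1669 lower, so 19.5% of the members against 8.2% of all genes were lower. The 15 were among the 34. Against F66, centring gave 20 lower members (26.0%, against 13.5% of all genes) and 2 higher, with all genes going from 2930 higher and 4104 lower to 3320 higher and 2726 lower. Repeated quantile normalization went the other way against F66, with 44 members lower (57.1%, against 18.0% of all genes) and a median of -0.26 in place of -0.15. Against Dysf-/- it gave 35 lower members (45.5%, against 12.8% of all genes).

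Markers of other cells moved with this comparison. All 14 macrophage and monocyte markers and all 12 fibroblast and matrix markers were higher in F66;Dysf-/- than in Dysf-/-, with median log2 differences of 1.98 and 1.41. Per array, the mean macrophage value ran from 8.69 to 8.81 in F66;Dysf-/-, from 6.61 to 6.91 in Dysf-/-, from 7.01 to 7.27 in F66 and from 6.11 to 6.23 in wt. The mean fibroblast value ran from 9.12 to 9.21 in F66;Dysf-/- and from 7.76 to 7.87 in Dysf-/-. Of the 6 markers of regenerating fibres and satellite cells, 5 were higher, among them Myog (1.72) and Ncam1 (1.55). Of the 12 muscle fibre markers, 8 were lower and 1 was higher, with a median of -0.18, close to that of the subunits. Of 8 endothelial and 8 adipocyte markers, 4 each were lower and none was higher. Of 10 markers of slow and oxidative fibres, 4 were lower, among them the slow myosin light chains Myl3 (-1.24) and Myl2 (-0.85), and 3 were higher, among them Casq2 (0.91) and Tpm3 (0.75). Against F66, 4 of these 10 were higher and 1 was lower. Of 11 fast fibre markers, 4 were lower and none was higher in each comparison. The fibre markers that fell included Mb, myoglobin (-0.57), and Tcap, a Z-disc protein (-0.51). Array values have no true zero, so none of these markers could be called absent, and their part in the lower subunit values was not tested.

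**Figure D2:**
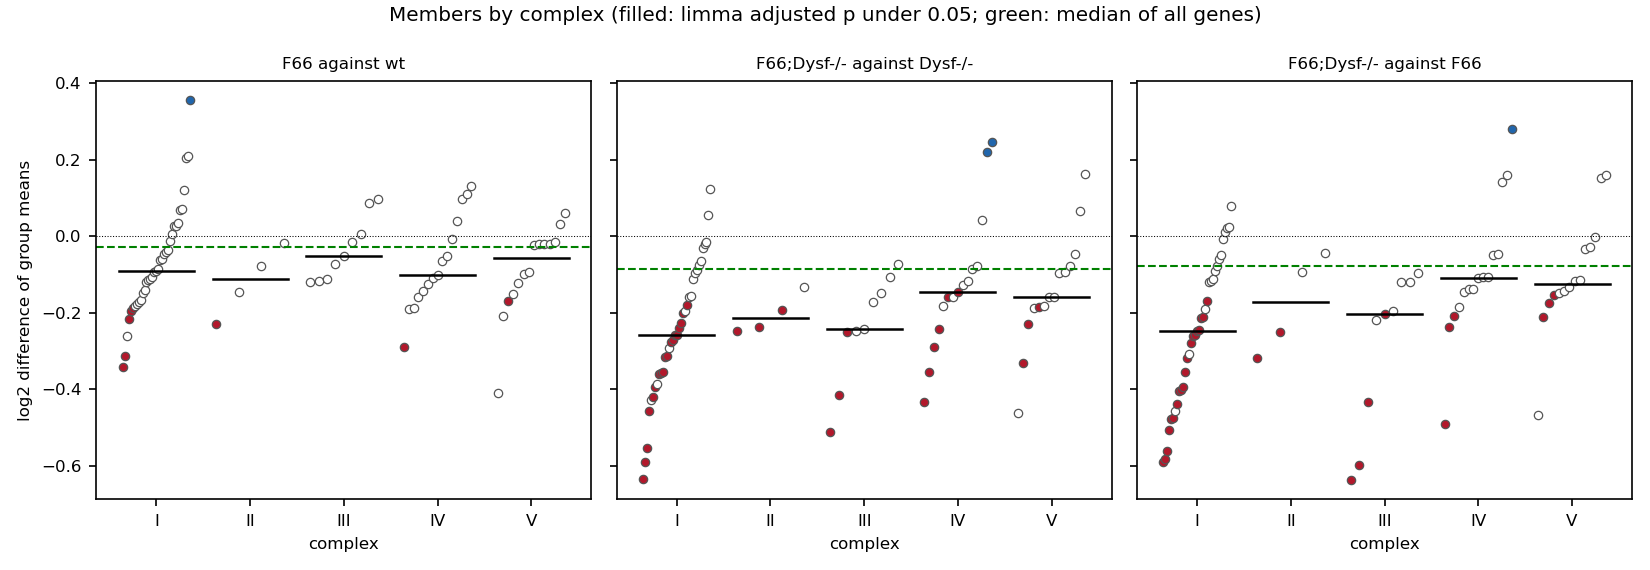
Log2 difference of each member (points, ordered by value within a complex) in 3 comparisons. Filled points passed limma adjusted p under 0.05, black lines are medians of a complex and the green dashed line is the median of all 20259 genes. Most filled points lie in complex I, which holds 35 of the 77 members, in the 2 comparisons with F66;Dysf-/-.

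Complex I, the NADH dehydrogenase, held 19 of the 34 lower members, out of its 35, and none that was higher. Ndufa6, an accessory subunit of the LYR family, had values of 9.41, 9.44 and 9.43 in F66;Dysf-/- and of 10.06, 10.05 and 10.06 in Dysf-/-. In F66 it stood at 9.91, 9.92 and 9.86, and in wt at 10.04, 9.81 and 10.12. The F66;Dysf-/- arrays therefore lay below all arrays of the other 3 groups. The log2 difference of Ndufa6 from Dysf-/- was -0.63 ± 0.09 (SE, n = 3 per group, limma adjusted p = 4.31e-05). On the rows used, this was the largest decrease of any member in this comparison.

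Ndufs6, a zinc-binding accessory subunit, had values of 9.30, 9.40 and 9.49 in F66;Dysf-/- and of 10.03, 9.97 and 9.96 in Dysf-/-. It stood at 9.75, 9.82 and 9.82 in F66 and at 10.14, 10.15 and 10.13 in wt. These 4 groups did not overlap, with wt highest, then Dysf-/-, F66 and F66;Dysf-/-. The log2 difference of Ndufs6 between F66;Dysf-/- and Dysf-/- was -0.59 ± 0.06 (limma adjusted p = 9.71e-07), and that between F66 and wt was -0.34 ± 0.06 (limma adjusted p = 0.00075). The step from wt to Dysf-/- (-0.16) did not pass the test (limma adjusted p = 0.339).

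Ndufa4, placed with complex I by its symbol and known to belong to complex IV, had values of 7.07, 7.36 and 7.21 in F66;Dysf-/- and of 7.87, 7.67 and 7.75 in Dysf-/-. The difference for Ndufa4 was -0.55 ± 0.08 (limma adjusted p = 9.91e-05). Its paralogue Ndufa4l2, which is known as a hypoxia-induced gene, had values of 6.11, 6.30 and 6.04 in F66;Dysf-/- and of 6.27, 6.32 and 6.11 in Dysf-/-. These overlapped, and the difference of Ndufa4l2 was -0.09 ± 0.12.

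The core subunits of complex I, which carry its electron path, were lower in part. In F66;Dysf-/- against Dysf-/-, Ndufv1, which binds NADH, differed by -0.26, and Ndufs1, Ndufs3 and Ndufs7, core subunits of the matrix arm, by -0.27, -0.36 and -0.24, all past the test. Ndufv2 (-0.19, limma adjusted p = 0.0605) and Ndufs8 (-0.11, limma adjusted p = 0.202), also core subunits, did not pass. The row of Ndufs3 is one of those placed on another chromosome, and its dimmer row on the gene's own chromosome gave -0.23 (limma adjusted p = 0.0128). Ndufb4, an accessory subunit of the membrane arm, differed by -0.42 on the row used and by -0.19 on its own-chromosome row, where it did not pass the test (limma adjusted p = 0.0749).

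Complex II, succinate dehydrogenase, was lower in 3 of its 4 subunits, and none was higher. Sdha, the flavoprotein that oxidizes succinate, had values of 9.54, 9.59 and 9.55 in F66;Dysf-/- and of 9.82, 9.80 and 9.81 in Dysf-/-. The difference of Sdha was -0.25 ± 0.05 (limma adjusted p = 0.00243), and no arrays of these groups overlapped. Sdhc and Sdhd, the membrane anchors, differed by -0.24 ± 0.08 (limma adjusted p = 0.0391) and -0.19 ± 0.07 (limma adjusted p = 0.0378). Sdhb, the iron-sulphur subunit, differed by -0.13 ± 0.07 and did not pass (limma adjusted p = 0.155), while against F66 it was lower by the test (-0.25 ± 0.07, limma adjusted p = 0.0112).

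Sdhd, whose promoter letters are shown above, had values of 9.62, 9.74 and 9.70 in F66;Dysf-/-, 9.81, 9.89 and 9.93 in Dysf-/-, 10.06, 10.00 and 9.96 in F66 and 10.07, 10.15 and 10.03 in wt. The F66;Dysf-/- arrays were lowest and the Dysf-/- arrays came next, below F66 and wt.

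Complex III, the cytochrome bc1 complex, was lower in 3 of 9 subunits against Dysf-/- and in 4 against F66. All 9 had log2 differences below 0 in both comparisons, as did 13014 and 12838 of all 20259 genes, in the same order. Uqcr11, a small membrane subunit, had values of 10.08, 10.33 and 10.48 in F66;Dysf-/- and of 10.78, 10.76 and 10.88 in Dysf-/-. The difference of Uqcr11 was -0.51 ± 0.09 (limma adjusted p = 0.000372) on a row placed on another chromosome, and -0.31 (limma adjusted p = 0.00349) on its own-chromosome row. Uqcrc2, a core protein, differed by -0.25 ± 0.06 (limma adjusted p = 0.00267). Cyc1, cytochrome c1, and Uqcrc1, the other core protein, differed by -0.07 and -0.11 and did not pass the test.

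Uqcrfs1, the Rieske iron-sulphur protein, had values of 7.87, 7.93 and 7.75 in F66;Dysf-/-, 8.27, 8.36 and 8.17 in Dysf-/-, 8.27, 8.64 and 8.44 in F66 and 8.30, 8.17 and 8.59 in wt. The F66;Dysf-/- arrays lay below all of these. The difference of Uqcrfs1 from Dysf-/- was -0.41 ± 0.11 (limma adjusted p = 0.00864). Its other 2 rows did not move alike: the second row, with a mean of 7.94, differed by -0.27, and a dim row with a mean of 4.39 differed by 0.45. The mean of the 3 rows of Uqcrfs1 gave -0.08 and did not pass the test (limma adjusted p = 0.686).

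Over the 16 members with several rows, the row used had a difference below 0 in 13, and 17 of the 21 rows not used also did. The median difference between F66;Dysf-/- and Dysf-/- was -0.18 for the rows used and -0.25 for the others. Rows of like brightness could differ. For Ndufb2, the row used (mean 6.22) gave 0.12 and the other (mean 6.20) gave -0.70. For Atp5l, the row used (mean 6.11) gave -0.18 and the next brightest (mean 5.92) gave -0.72.

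Complex IV, cytochrome c oxidase, was the only complex with members higher in F66;Dysf-/- than in Dysf-/-. These were 2 of 15, beside 6 that were lower. Of all genes, 15.2% were higher and 18.4% lower, so the share of complex IV that was higher did not exceed that of all genes. Cox5a, a subunit of the matrix side, had values of 6.91, 7.22 and 7.03 in F66;Dysf-/- and of 7.31, 7.72 and 7.43 in Dysf-/-. The difference of Cox5a was -0.43 ± 0.12 (limma adjusted p = 0.0135), and that on its own-chromosome row was -0.40 (limma adjusted p = 0.00659). Both forms of subunit 4 fell, the general form Cox4i1 by -0.29 ± 0.06 (limma adjusted p = 0.00217) and Cox4i2, known for its expression in lung and its induction by low oxygen, by -0.35 ± 0.09 (limma adjusted p = 0.00452).

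Cox6a1 and Cox8a, the 2 members that were higher, are the forms of subunits 6a and 8 found in most tissues. Cox6a1 had values of 9.25, 9.25 and 9.17 in F66;Dysf-/- and of 9.01, 8.94 and 8.98 in Dysf-/-, a difference of 0.25 ± 0.06 (limma adjusted p = 0.00266). The F66;Dysf-/- arrays of Cox6a1 lay above all 15 others, although the highest of these, 9.17 in F66, nearly reached them. Cox6a2, the form of heart and skeletal muscle, had values of 11.08, 11.17 and 11.16 in F66;Dysf-/- and of 11.34, 11.30 and 11.32 in Dysf-/-. The arrays of Cox6a2 did not overlap between these groups, yet the difference of -0.18 ± 0.07 did not pass (limma adjusted p = 0.0672), and that against F66 did (-0.24, limma adjusted p = 0.02).

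Cox8a had values of 8.47, 8.18 and 8.20 in F66;Dysf-/- and of 8.03, 7.93 and 8.23 in Dysf-/-, which overlapped. Its difference was 0.22 ± 0.08 (limma adjusted p = 0.0465), and it no longer passed without F66;Dysf-/- replicate 1 (0.13, limma adjusted p = 0.234), without Dysf-/- replicate 1 (0.20, limma adjusted p = 0.111) or without Dysf-/- replicate 2 (0.15, limma adjusted p = 0.192). Against F66, Cox8a was higher by 0.28 ± 0.08 (limma adjusted p = 0.0133). Cox8b, its muscle form in rodents, had values of 12.87, 12.89 and 12.96 in F66;Dysf-/- and of 13.02, 13.07 and 13.07 in Dysf-/-, a difference of -0.14 ± 0.05 (limma adjusted p = 0.0268).

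Within an array, the value of Cox6a1 minus that of Cox6a2 ran from -1.99 to -1.83 in F66;Dysf-/- and from -2.47 to -2.16 in the other 15 arrays. The value of Cox8a minus that of Cox8b ran from -4.76 to -4.40 in F66;Dysf-/- and from -5.14 to -4.84 elsewhere. In both pairs the F66;Dysf-/- arrays did not overlap the others. For Cox8a minus Cox8b the gap was narrow (-4.76 against -4.84), and no test was made on these values. Since the probes of 2 genes differ in brightness, they do not give the ratio of the RNA of the forms.

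Of the remaining isoform sets of complex IV, only Cox7b passed the test between F66;Dysf-/- and Dysf-/-. Cox7b fell by 0.24 on the log2 scale (limma adjusted p = 0.0132), whereas Cox7a2, the general form of subunit 7a, differed by -0.12 and Cox6b1 by -0.09, neither past the test. The testis forms Cox6b2, Cox7b2 and Cox8c differed by -0.08, 0.04 and -0.13, none past the test, and Cox7b2 and Cox8c were among the dim members.

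**Figure D3:**
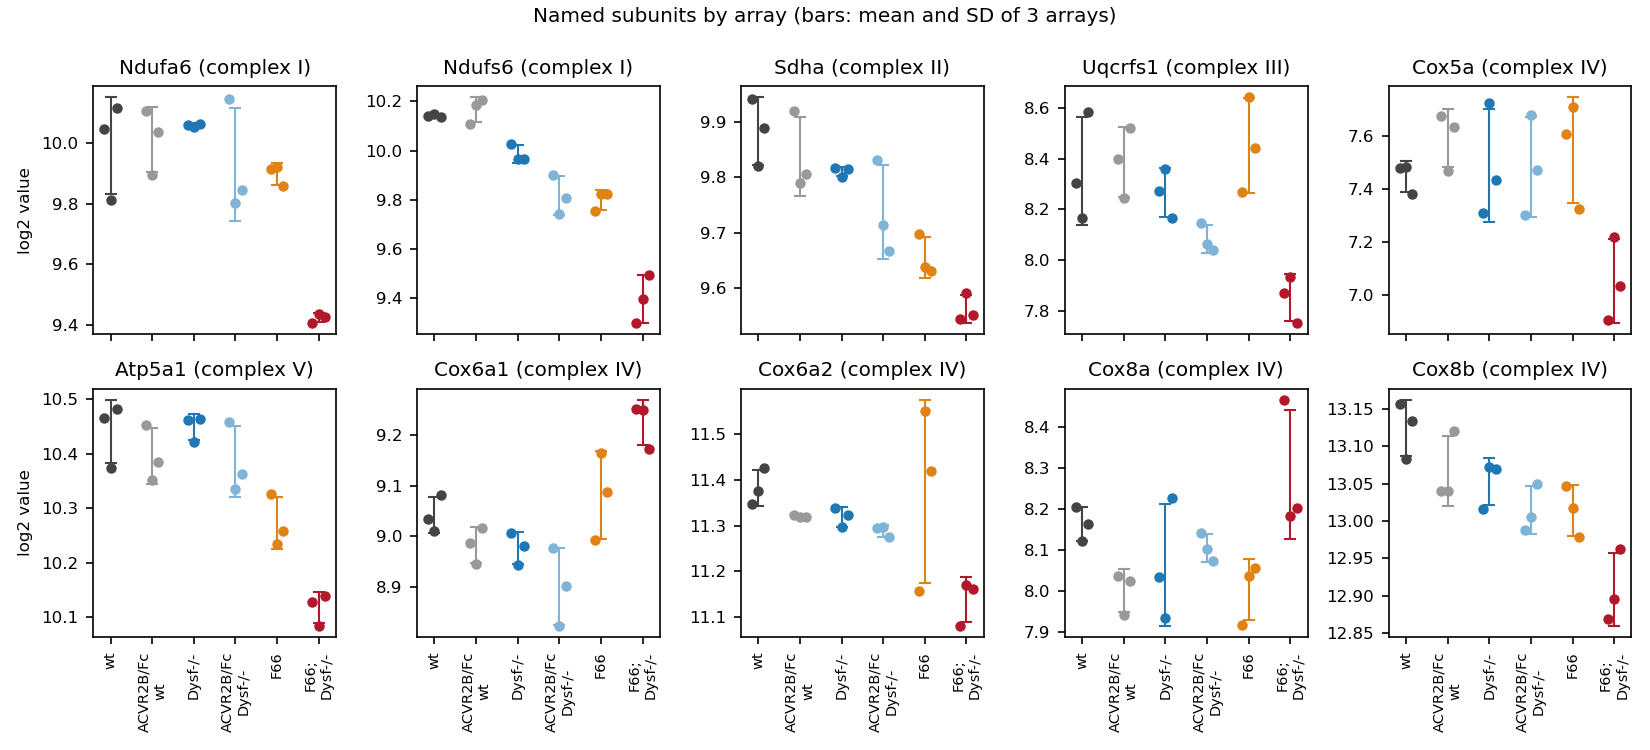
Log2 values of 10 named subunits in each array (points) with the mean and SD of 3 arrays (bars), by group; each panel has its own axis. In F66;Dysf-/- the points of Ndufa6, Ndufs6, Sdha, Uqcrfs1, Cox5a, Atp5a1 and Cox8b lie below all others, and those of Cox6a1 lie above all others.

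Complex V, the ATP synthase, had 3 of 14 members lower and none higher in F66;Dysf-/- than in Dysf-/-, and 10 of its members passed none of the 8 comparisons. Atp5a1, the alpha subunit of the catalytic head, had values of 10.13, 10.09 and 10.14 in F66;Dysf-/-, 10.46, 10.42 and 10.46 in Dysf-/-, 10.33, 10.23 and 10.26 in F66 and 10.47, 10.37 and 10.48 in wt. The F66;Dysf-/- arrays of Atp5a1 were lowest and the F66 arrays came next, without overlap. The difference of Atp5a1 from Dysf-/- was -0.33 ± 0.05 (limma adjusted p = 0.000117). Its catalytic partner Atp5b, the beta subunit, differed by -0.10 ± 0.05 and did not pass (limma adjusted p = 0.174).

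Atp5d, the delta subunit of the stalk, differed by -0.19 ± 0.06 (limma adjusted p = 0.0228). Atp5md, a small membrane subunit also called DAPIT, differed by -0.23 ± 0.08 (limma adjusted p = 0.0439) on the row used and by -0.28 on its own-chromosome row, which did not pass (limma adjusted p = 0.0541). Atp5g1, Atp5g2 and Atp5g3 encode the c subunit of the membrane rotor with the same mature protein, and differed by -0.05, 0.07 and -0.09, none past the test. Atp5c1, the gamma subunit, differed by -0.46 ± 0.18 and did not pass (limma adjusted p = 0.0564). It is the single member placed on another chromosome that has no row on its own.

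Members of neighbouring mitochondrial pathways were also lower in F66;Dysf-/- than in Dysf-/-. Of 18 genes of the citric acid cycle and pyruvate entry, 15 were lower and none was higher (median -0.26), led by Suclg2, a subunit of the GTP-forming succinyl-CoA ligase (-0.84), and Pdhb, a subunit of pyruvate dehydrogenase (-0.45). Of 52 assembly factors and electron carriers, 28 were lower and none higher (median -0.20). These included Atpaf1, an assembly factor of complex V (-0.59), and Ecsit, which takes part in assembly of complex I (-0.36). Of 23 carriers, channels and import proteins, 14 were lower, among them the mitofusins Mfn1 (-0.59) and Mfn2 (-0.32) and the mitochondrial creatine kinase Ckmt2 (-0.47). Of 75 mitochondrial ribosomal proteins, 32 were lower and none was higher, with a median of -0.19, the same as for the subunits.

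Of 21 regulators of mitochondrial gene expression, 8 were lower and none was higher. Tfb2m, a transcription factor of mitochondrial DNA, differed by -0.62, Ppara, a nuclear receptor for fatty acid oxidation, by -1.15, and Esrra, the receptor whose letters were searched above, by -0.40. Against F66, 9 regulators were lower and 2 higher, and Ppargc1a, a coactivator of mitochondrial biogenesis, differed by -0.73 (limma adjusted p = 0.000495). These lists are described by counts, beside the 18.4% and 20.3% of all genes lower in the respective comparisons.

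**Figure D4:**
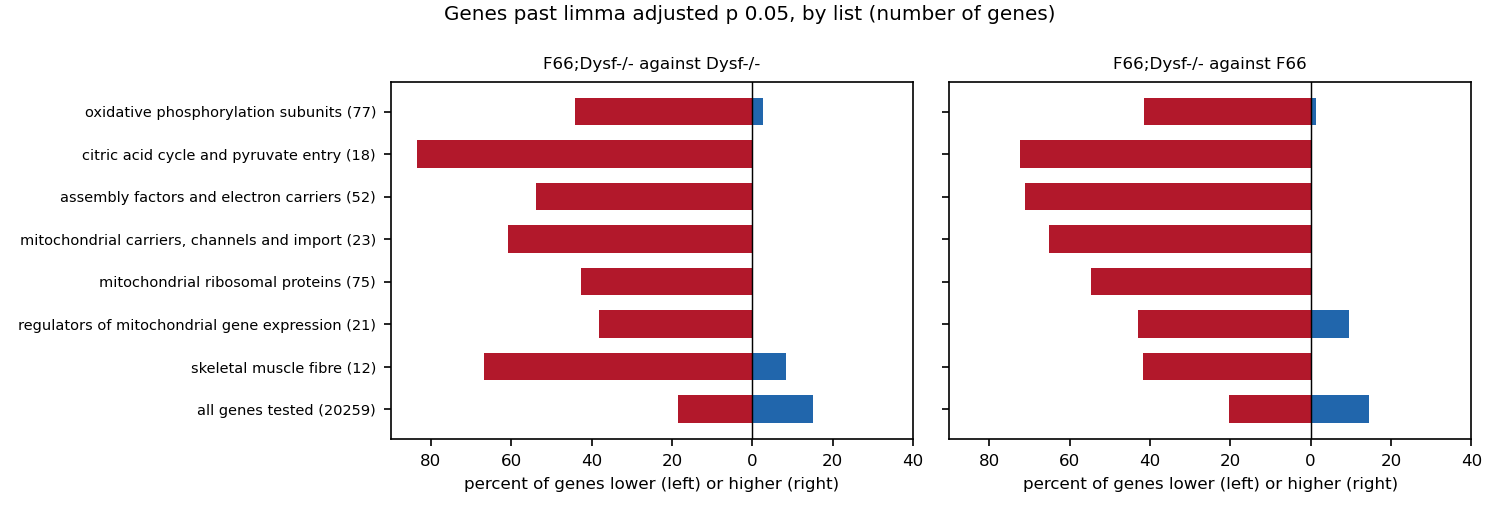
Percent of the genes of each list that were lower (red, to the left) or higher (blue, to the right) at limma adjusted p under 0.05 in 2 comparisons with F66;Dysf-/-, with the number of genes in parentheses. The subunits (34 and 32 of 77 lower) lie beside 5 mitochondrial lists and the skeletal muscle fibre markers (8 and 5 of 12 lower), which had larger or like shares. All lie above all genes tested, of which 18.4% and 20.3% were lower.

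In mice with dysferlin, the transgene went with fewer and smaller differences. In F66 against wt, 8 members (10.4%) were lower and 1 was higher, where 5.5% of all genes were lower and 8.11% higher. The median log2 difference was -0.08, against -0.03 for all genes. The lower members were Ndufs6, Ndufa7, Ndufa8, Ndufa9 and Ndufs7 of complex I, Sdha, Cox4i2 and Atp5a1. All of these but Ndufa7 were also lower in F66;Dysf-/- against Dysf-/-, and the same count over all genes was not made. With the F66 and wt arrays fitted alone, 1 member was lower (1.3%, against 2.5% of all genes), so the larger share among the members was not seen there. After centring, 1 member, Ndufs6, was lower (against 2.9% of all genes), and all genes went from 1644 higher and 1115 lower to 2258 higher and 589 lower. Leaving out an array lowered the count of 8 to between 3 and 6, with 4 without wt replicate 1, wt replicate 3 or F66 replicate 1 and 3 without F66 replicate 3. In these fits, 3.5% to 4.5% of all genes were lower.

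Sdha had values of 9.70, 9.64 and 9.63 in F66 and of 9.94, 9.82 and 9.89 in wt, a difference of -0.23 ± 0.05 (limma adjusted p = 0.0108). Ndufa7, an accessory subunit, had values of 11.17, 11.15 and 11.38 in F66 and of 11.52, 11.54 and 11.58 in wt (-0.31 ± 0.09, limma adjusted p = 0.0244), on a row placed on another chromosome. Its own-chromosome row gave -0.13 and did not pass (limma adjusted p = 0.173). Ndufa7 stood at 11.21, 11.09 and 11.28 in Dysf-/- and at 11.18, 11.10 and 11.24 in F66;Dysf-/-. The 3 groups with a mutation or transgene thus lay close together, below wt.

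Cox4i2 had values of 7.31, 7.27 and 7.18 in F66 and of 7.57, 7.67 and 7.39 in wt (-0.29 ± 0.09, limma adjusted p = 0.0342). Atp5a1 differed by -0.17 ± 0.05 (limma adjusted p = 0.0403). Ndufa1, a small X-linked subunit needed for assembly of complex I, was the single higher member, with 7.12, 7.23 and 7.11 in F66 and 6.80, 6.62 and 6.98 in wt. The groups did not overlap for Ndufa1 (0.36 ± 0.09, limma adjusted p = 0.0145), and it no longer passed without wt replicate 2 (0.26, limma adjusted p = 0.074) or without F66 replicate 2 (0.32, limma adjusted p = 0.0665).

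Fibre type markers moved with this comparison too. Of 10 markers of slow and oxidative fibres, 3 were lower in F66 than in wt and none was higher (median -0.39), namely Myl3 (-0.77), Myoz2 (-0.62) and Mb (-0.41). Their mean ran from 8.44 to 8.65 in F66 and from 8.81 to 9.08 in wt. None of 11 fast fibre markers was called. Of the macrophage markers 12 of 14 and of the fibroblast markers 11 of 12 were higher in F66, with medians of 1.02 and 0.75. Of 8 endothelial markers, 5 were lower and none was higher (median -0.30), led by Kdr, a receptor for VEGF (-1.01), and of 8 adipocyte markers 4 were lower and 1 was higher. The part of these in the subunit differences was not tested.

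The transgene effect differed between backgrounds for 11 members. The log2 difference between F66;Dysf-/- and Dysf-/- minus that between F66 and wt was below 0 in 10 members (13.0%, against 7.93% of all genes) and above 0 in 1 (against 8.54% of all genes), by the interaction term of limma. Its median was -0.12 over the members and -0.04 over all genes. Ndufa6, whose array values are given above, differed by -0.09 with dysferlin and by -0.63 without it, a difference of effects of -0.54 ± 0.13 (limma adjusted p = 0.00723). Ndufa4, Uqcrfs1 and Cox5a had differences of effects of -0.51, -0.51 and -0.53.

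Ndufs4, an accessory subunit whose loss in mice models Leigh syndrome, stood at 7.12, 7.19 and 7.10 in F66;Dysf-/-, 7.48, 7.26 and 7.46 in Dysf-/-, 7.82, 7.71 and 7.65 in F66 and 7.55, 7.44 and 7.56 in wt. Among these groups, the F66 arrays were the highest for Ndufs4 and the F66;Dysf-/- arrays the lowest. The effects of 0.21 with dysferlin and -0.26 without it differed by -0.47 ± 0.11 (limma adjusted p = 0.0105). Ndufs6 (-0.25) was the single one of the 10 that was lower with the transgene in both backgrounds. Ndufa1 (-0.39) was higher in F66 than in wt and differed by -0.03 between F66;Dysf-/- and Dysf-/-. Cox8a had the single positive difference of effects, 0.38 ± 0.11 (limma adjusted p = 0.032), from -0.16 with dysferlin to 0.22 without it.

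For 5 of the 11 members the call depended on the row. Ndufs3, on a row placed on another chromosome, stood at 10.55, 10.57 and 10.59 in F66;Dysf-/-, 10.88, 10.95 and 10.96 in Dysf-/-, 11.07, 11.11 and 11.04 in F66 and 11.06, 11.06 and 11.14 in wt. The difference of effects for Ndufs3 was -0.34 ± 0.06 (limma adjusted p = 0.00155), and -0.23 on its own-chromosome row (limma adjusted p = 0.118). Ndufb4 had the largest difference of effects (-0.63 ± 0.13, limma adjusted p = 0.00351), and -0.08 on its own-chromosome row (limma adjusted p = 0.718). Cox5a and Uqcr11 gave -0.29 and -0.15 on such rows (limma adjusted p = 0.186 and 0.346). For Uqcrfs1, the mean of its rows gave 0.083, of the opposite sign (limma adjusted p = 0.823). With own-chromosome rows, 6 members in place of 10 had a lower effect without dysferlin, 7.8% of the members and 7.8% of all genes. The 4 groups fitted alone also gave 6 (7.8%, against 7.6% of all genes), and centring gave 5 (6.5%, against 5.6%). The share of members thus stood above that of all genes by the fit of 18 arrays and came close to it under these settings.

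**Figure D5:**
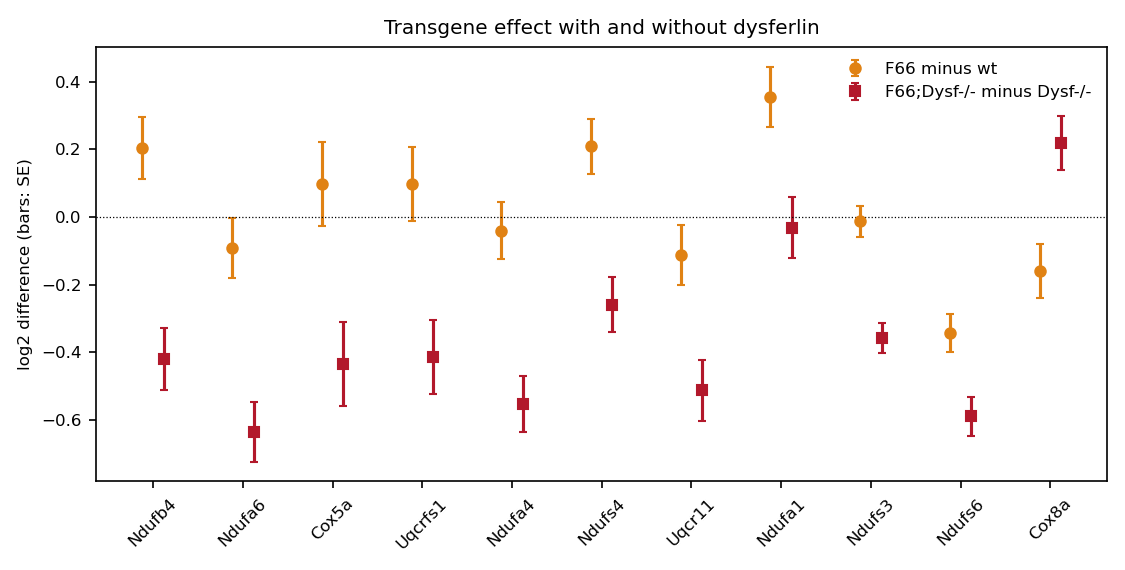
Log2 difference with its SE for the 11 members whose transgene effect differed between backgrounds: F66 minus wt (circles) and F66;Dysf-/- minus Dysf-/- (squares). Squares lie below circles for 10 members and above for Cox8a.

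Loss of dysferlin alone gave no member past the test. In Dysf-/- against wt, 0 members were called by limma, where 0.301% of all genes were higher and 0.188% lower. Before adjustment, 11 members (14.3%) were lower and none was higher at p under 0.05, where 5.68% of all genes were lower and 4.16% higher, and the methods' t-test after adjustment called 0. The median was -0.07, against -0.02 for all genes. Of the 77 differences, 60 were below 0, as were 11665 of the 20259 over all genes. The largest were Uqcr10, a small subunit of complex III (-0.40 ± 0.10, limma adjusted p = 0.119), and Ndufa7 (-0.35 ± 0.09, limma adjusted p = 0.098). Of the macrophage markers 5 of 14 and of the fibroblast markers 1 of 12 were higher in Dysf-/-, and their part was not tested.

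Uqcr10 had values of 8.03, 7.86 and 7.92 in Dysf-/- and of 8.31, 8.30 and 8.40 in wt. In F66;Dysf-/- it stood at 7.64, 7.51 and 7.92 and in F66 at 8.30, 8.50 and 8.18. All arrays without dysferlin in these 4 groups lay below those with it, and the difference of Uqcr10 between F66;Dysf-/- and F66 was -0.64 ± 0.10 (limma adjusted p = 0.000167).

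The soluble receptor gave no member past the test in either background. In ACVR2B/Fc-injected wt against wt, 0 members were called, where 0.0247% of all genes were higher and 0.00494% lower, and before adjustment 2 were higher and 2 lower at p under 0.05 (2.6% each, against 4.02% and 3.59% of all genes). In ACVR2B/Fc-injected Dysf-/- against Dysf-/-, 0 were called, where 0.0148% of all genes were higher and 0.00987% lower. Before adjustment, 13 (16.9%) were lower here and 2 (2.6%) higher, where 7.61% of all genes were lower and 11.2% higher. The methods' t-test after adjustment called 0 members in both. Without ACVR2B/Fc-injected Dysf-/- replicate 1, Cox7c and Ndufv2 were lower (-0.38 and -0.31, limma adjusted p = 0.0455 and 0.0355). The difference of the receptor's effect between backgrounds was called for 0 members (0.00494% of all genes higher and 0% lower), and before adjustment for 1 above 0 and 6 below (against 4.49% and 3.26% of all genes).

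The lowest p-values among the injected Dysf-/- mice belonged to Cox7c (-0.34 ± 0.08, limma adjusted p = 0.093) and Ndufb4 (-0.37 ± 0.09, limma adjusted p = 0.0937), both on rows placed on another chromosome. Ndufb4 had values of 11.16, 11.07 and 11.01 in ACVR2B/Fc-injected Dysf-/- and of 11.54, 11.41 and 11.39 in Dysf-/-, without overlap. Sdhd went the other way, with 9.98, 10.21 and 10.07 after injection and 9.81, 9.89 and 9.93 without it (0.21 ± 0.07, limma adjusted p = 0.15). None of the 14 macrophage markers was called after injection in either background, where hardly any gene was. In injected Dysf-/- mice all 14 nevertheless lay above 0 (0.09 to 0.51, median 0.33, against 0.04 for all genes). In injected wt mice they ran from -0.03 to 0.41 (median 0.15). Of 10 markers of slow and oxidative fibres, 0 were called in either background. Their median was -0.24 in injected wt mice (-0.63 to 0.07) and -0.12 in injected Dysf-/- mice (-0.41 to 0.08). The medians of all genes were 0.004 and 0.04. The part of these markers in the subunit values was not tested.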

How the data were processed

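The 18 quadriceps samples were measured on Mouse Exon 1.0 ST arrays (Affymetrix), and arrays were grouped by their sample labels. The authors deposited log2 values, 1 per array for each of 115830 rows, for which the submitters' processing notes name RMA, Partek and build mm9. Their versions are not given in the sources used here. RMA corrects background, quantile normalizes and summarizes, so a change shared by most genes is partly removed, and differences of dim genes are understated. Of the rows, 25539 carried 1 symbol in the platform annotation, which can be old, and 2300 carried several and were not used. Detection calls were not used. The number of arrays limits the precision.

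Group means of all 18 arrays were fitted with limma 3.58.1 in R 4.3.3 (lmFit, contrasts.fit, eBayes; 12 residual and 3.2 prior degrees of freedom), with no covariate, over 20259 genes, and p-values were adjusted by Benjamini-Hochberg within each comparison. The fit was tested on simulated data. Complexes and lists are described by counts and medians without a test. The members and lists were chosen with earlier results of these data known. Named were, per complex, the 2 largest called changes in each direction in F66;Dysf-/- against Dysf-/- and in F66 against wt, the members called in a difference of effects, the isoform sets and all Sdh subunits, and up to 4 genes of each list by p. Ndufa8, Ndufa9, core subunits, subunits of the ATP synthase head and stalk, Uqcr10, Uqcrc1, Uqcrc2, Cyc1, Cox7c and Ndufv2 were added after their values were seen. The alternatives were the compared groups alone, the methods' t-test (that of the general statistics), the replicate number as a block, the mean of a gene's rows, no genes below the median of all rows, a repeated quantile normalization, centring on array medians, eBayes with trend and robust settings, and leaving out each array. Own-chromosome rows, and leaving out members placed elsewhere, were added after seeing the data. Figures were drawn with matplotlib 3.10.9.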

Additional observations from a re-analysis of the deposited data

Results flagged for a closer look

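The transgene effect, taken as a log2 difference, differed between mice without and with dysferlin by limma's interaction term for 11 subunits, which is why they are set apart here. It was lower without dysferlin for Ndufa1 (-0.39), Ndufa4 (-0.51), Ndufa6 (-0.54), Ndufb4 (-0.63), Ndufs3 (-0.34), Ndufs4 (-0.47) and Ndufs6 (-0.25) of complex I. It was also lower for Uqcr11 (-0.40) and Uqcrfs1 (-0.51) of complex III and for Cox5a (-0.53) of complex IV, and it was higher for Cox8a (0.38). The values of Ndufb4, Ndufs3, Uqcr11 and Cox5a come from rows placed on another chromosome than the gene, and none of these 4 passed on its own-chromosome row (-0.08, -0.23, -0.15 and -0.29).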

How the results depend on the processing

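Each of 197 single subunit results was set against its value under each alternative. Of these pairs, 2871 kept their side of the threshold, 290 were no longer past it, 17 newly passed and 1 reversed. A change of sign where neither value passed was counted as kept, so direction did not necessarily hold in the 2871. The reversal was that of Uqcrfs1, whose difference of the F66 effect was 0.083 with the mean of its rows. In F66 against wt, the 1 higher and 8 lower subunits became 0 and 1 in the compared groups alone and with the methods' t-test, while 5 were lower after repeated quantile normalization and 1 after centring. In F66;Dysf-/- against Dysf-/-, the 2 higher became 1 in the groups alone, with the t-test and after quantile normalization, and the 34 lower became 15 after centring. Against F66, the 1 higher became 0 with the t-test and 2 without dim genes, with centring and with trend and robust settings (Cox6a1 added), and the 32 lower became 20 after centring. In Dysf-/- against wt, quantile normalization gave 2 lower (Ndufa7 and Ndufs3). For the difference of the F66 effect, the 1 higher became 0 in the groups alone, and the 10 lower became 6 there, with the mean of rows, with own-chromosome rows and with only members on their own chromosome, and 5 after centring. The cause of these changes was not tested.

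Leaving out 1 array gave 0 to 1 higher and 3 to 6 lower in F66 against wt, 1 to 2 and 25 to 30 in F66;Dysf-/- against Dysf-/-, 0 to 3 and 23 to 33 against F66, 0 to 1 and 5 to 10 for the difference of the F66 effect, and 0 to 2 lower in ACVR2B/Fc-injected Dysf-/- against Dysf-/-. Of all genes, 3.5% to 4.5%, 12.6% to 15.8%, 14.7% to 18.4%, 5.6% to 7.6% and 0% to 1.6% were lower, in the same order. The deviations of arrays with equal replicate numbers correlated from -0.067 to 0.293, over 0.1 for all 3 numbers in no comparison. The values were highest in ACVR2B/Fc-injected wt against wt (0.212, 0.293 and 0.039), where 5 of 6 arrays correlated best with their own number. With 3 arrays per group, such values cannot decide whether the numbers mark a pairing or a batch. In no comparison did all 6 arrays correlate best with their own number (2 to 5 did). With the replicate number as a block, 1 was higher and 7 lower in F66 against wt, 2 and 34 in F66;Dysf-/- against Dysf-/-, 1 and 33 against F66, 1 and 7 for the difference of the F66 effect, and 0 elsewhere. Of all genes, 6.2%, 20%, 21.5% and 8.5% were lower, in the same order. In ACVR2B/Fc-injected Dysf-/- against Dysf-/-, the block took all genes from 3 higher and 2 lower to 29 and 58.

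At the methods' threshold (p under 0.01 and more than 2-fold) the methods' t-test called 0 members in all 6 comparisons. After Benjamini-Hochberg it called 24 lower in F66;Dysf-/- against Dysf-/- (31.2%, against 13.9% of all genes) and 24 against F66 (31.2%, against 16.1%). With 3 arrays per group, a subunit that did not pass is not shown to be unchanged. The limma p-values use the spread among mice of the same group, pooled over all 6 groups and moderated by that of all genes. Those of the methods' t-test use the spread within the groups compared. The comparisons with F66;Dysf-/- share its arrays.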
